A study of Homo sapiens with 14 samples.

Results

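The TENM4 locus was examined as a window of 2 Mb on human chromosome 11 (hg19 chr11:78000001-80000000), in which TENM4, older name ODZ4, spans about 78.36 to 79.15 Mb. It was chosen because many of its sites opened with PAX3-FOXO1 in LHCN and many closed with QC6352 in RH30, so both of those contrasts chose it. Merging the peaks of all 14 lists as deposited gave 1034 regions in the window, of 410350 in the whole series. Open chromatin was measured by ATAC-seq, in which the Tn5 transposase inserts sequencing adapters into accessible DNA, on 100000 cells per library. LHCN is an immortalised human myoblast line. It overexpressed PAX3-FOXO1, the fused transcription factor found in alveolar rhabdomyosarcoma, or carried an empty vector, both for 72 h. RH30 is an alveolar rhabdomyosarcoma line that carries its own PAX3-FOXO1 fusion in every group, controls included. It received 200 nM QC6352, an inhibitor of KDM4 histone demethylases, or 0.1% DMSO, for 72 h as the protocol reads. In a separate set RH30 was transduced for 72 h with a hairpin against KDM4B, labelled shKDM4B-813 or shKDM4B-814, or with a control hairpin labelled shCtrl. Each of the 7 groups held 2 libraries. The labels do not say whether these were separate cultures, and the p-values therefore reflect the spread among libraries alone, which may be technical.

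The 6 hairpin lists disagreed with their labels. Inside the lists labelled shKDM4B-813 every peak name began with RH30-sh814, inside those labelled shKDM4B-814 with RH30-shCtrl, and inside those labelled shCtrl with RH30-sh813. The peak names of the other 8 lists matched their labels. Groups below follow the labels, and the main hairpin results are also given by the peak names. The LHCN and QC6352 results use none of these 6 libraries.

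TENM4 encodes teneurin 4, a large single-pass membrane protein of the teneurin family, which forms contacts between cells and is best known from neurons and oligodendrocytes. In mouse muscle it is known for helping to keep satellite cells quiescent. The gene runs on the minus strand, so its start lies at the high end of its span. In RefSeq's GRCh38.p14 order GAB2, an adaptor of receptor signalling, and NARS2, the mitochondrial asparaginyl-tRNA synthetase, lie on its low side, the microRNA genes MIR708 and MIR5579 lie inside it, and no coding gene follows on its high side before FAM181B. No gene's RNA was measured by this assay. Peaks were not assigned to exons or introns, because no annotation of hg19 was used here.

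A region with a peak in all 14 lists lay at the high end of the gene span, from 79147529 to 79152625. Its strongest peak had authors' fold values over background of 32.5 and 37.5 with PAX3-FOXO1 and 21.7 and 17.7 with vector in LHCN. In RH30 the values were 4.37 and 6.88 with QC6352, 8.97 and 7.43 with DMSO, 5.27 and 7.79 in the libraries labelled shKDM4B-813, 7.34 and 8.16 in those labelled shKDM4B-814, and 6.69 and 8.81 in those labelled shCtrl. The site was therefore listed in every library. The sequence RefSeq gives for the TENM4 promoter (GRCh38.p14, chr11:79440981-79441280, minus strand, from 250 bases before to 50 after the start) is shown because this region lies at the gene's start. That link rests on the rounded gene end alone, since the promoter's build differs from the hg19 of the peaks and no position was converted. Capitals mark an E-box of the form CACCTG, the type of element that bHLH factors bind.

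TENM4 promoter: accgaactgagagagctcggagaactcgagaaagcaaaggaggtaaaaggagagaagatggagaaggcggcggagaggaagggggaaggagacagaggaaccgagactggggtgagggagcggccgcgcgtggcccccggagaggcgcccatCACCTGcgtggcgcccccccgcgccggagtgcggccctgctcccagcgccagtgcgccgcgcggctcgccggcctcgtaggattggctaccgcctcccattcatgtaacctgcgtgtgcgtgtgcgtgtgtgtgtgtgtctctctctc

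These 300 bases were 66.3% G or C, against a median of 58.7% over the 35116 promoters of the same table, and held 30 CpG pairs against a median of 14. CACCTG, on either strand, occurred once and occurs in 20.6% of those promoters. It was also the only match to CANNTG, which 68.7% of promoters hold. The E-box form CAGCTG (17.9% of promoters), the homeodomain core ATTA (50.2% of promoters), the forkhead core TGTTTAC (3.42%) and the GC box GGGCGG (45.0%) had no match on either strand, which says only that these letters are not in this stretch.

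The window held few peaks in myoblasts and many in the tumour line. With every list trimmed to its 93488 strongest peaks, so that lists of unequal length could be set side by side, the window held 85 and 89 peaks with PAX3-FOXO1 and 47 and 41 with vector in LHCN. In RH30 it held 121 and 148 with QC6352 and 431 and 367 with DMSO. The libraries labelled shKDM4B-813 had 134 and 157 peaks, those labelled shKDM4B-814 had 308 and 365, and those labelled shCtrl had 211 and 197. In these trimmed lists no pair of groups compared overlapped, but the LHCN and QC6352 contrasts chose the window. The hairpin groups did overlap in the lists as deposited. How often such groups overlap in other windows was not counted. In 1 Mb steps of these equal lists, summed DMSO peaks over summed vector peaks gave 12.2 and 6.44 in the window. The ratio was 1.78 to 7.37 in the 10 Mb before it. In the 6 Mb after it, where vector had peaks, the ratio was 0.714 to 15. A higher number in RH30 was thus not limited to the window. As deposited, the lists held 165 and 158 window peaks with PAX3-FOXO1, 84 and 74 with vector, 169 and 473 with QC6352, and 571 and 652 with DMSO. The second QC6352 list was the longest of all, at 176899 peaks against 111272 in the first. Of the 1034 regions, 845 had no peak in any LHCN list (81.7%, against 43.3% of all regions) and 34 had none in any RH30 list (3.29%, against 27.6%). A peak in all 14 lists was found at 29 (2.80%, against 7.29%), and 345 were in a single list (33.4%, against 33.0%). Many RH30 peaks here were weak: the median percentile of the window's peaks within their list was 25.8 and 31.2 with QC6352 and 26.7 and 27.2 with DMSO.

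**Figure D1:**
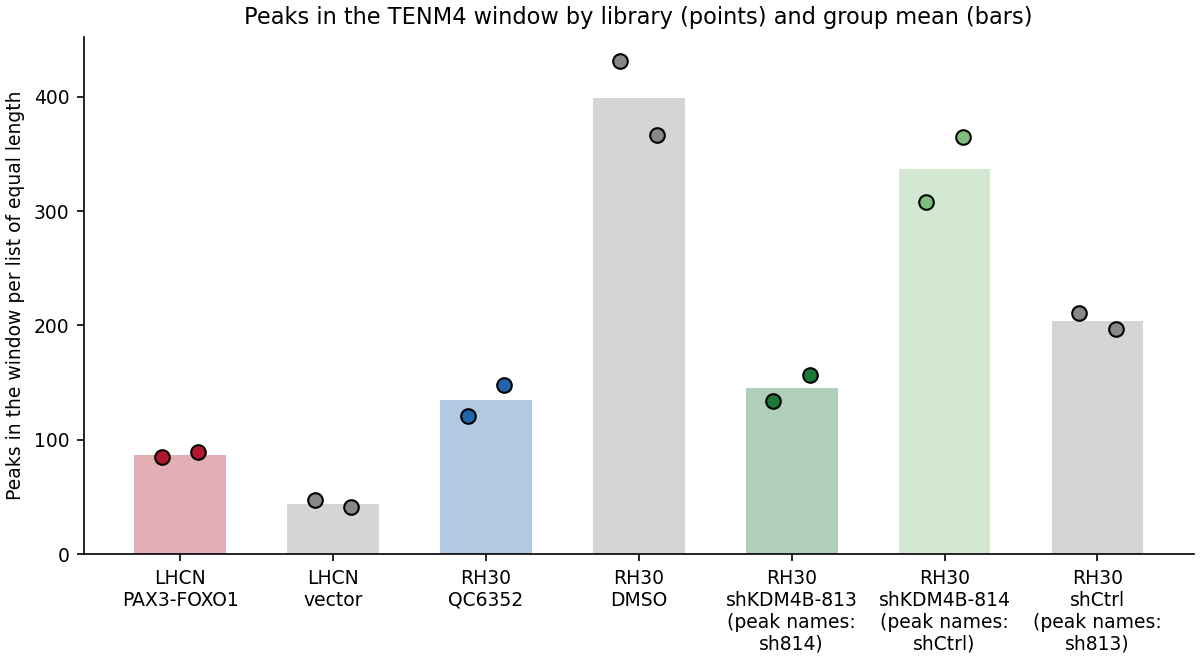
Peaks in the TENM4 window (vertical axis) in each library (points) with group means (bars), every list trimmed to 93488 peaks and groups named by label, with the name found inside the hairpin lists in brackets. DMSO has the most peaks, at 431 and 367, and LHCN vector the fewest, at 47 and 41.

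Expression of PAX3-FOXO1 opened sites across the gene in LHCN and closed almost none. A region was gained when both PAX3-FOXO1 lists and neither vector list had a peak, and lost in the reverse case, in lists trimmed to 170390 peaks. Of 192 window regions 74 were gained (38.5%) and 6 were lost (3.13%), where over all 234135 regions 8.15% were gained and 8.45% were lost. These counts chose the window and are given as a description. Among 1467 windows of 2 Mb it ranked 1 by the number gained (median 11), and among 1293 windows with at least 50 regions it ranked 7 by share. Inside the gene span 58 of 103 regions were gained and 0 lost. In the rest of the window 16 of 89 were gained and all 6 losses fell there. The 74 gained regions had no weaker peak in the deposited vector lists except for 1. Without the second vector library 13 regions were lost in place of 6.

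The strongest gained site lay inside the gene from 78973888 to 78974506. Its authors' fold values were 42.9 and 54.3 with PAX3-FOXO1, and no vector list had a peak. It was also open in every RH30 list, with 10.6 and 12.1 with QC6352 and 30.6 and 21.3 with DMSO. The hairpin lists held 61.2 and 45.9 (labelled shKDM4B-813), 38.2 and 34.8 (labelled shKDM4B-814), and 22.3 and 28.3 (labelled shCtrl). The site was thus kept with QC6352, in both libraries. The next gained site, from 78594651 to 78595081, had 19.9 and 26.3 with PAX3-FOXO1 and no peak in any vector or RH30 list. A further one, from 78756982 to 78757346, had 23.2 and 22.0 with PAX3-FOXO1, none with vector, 6.91 and 5.46 with QC6352 and 9.63 and 6.42 with DMSO. The fourth, from 78976897 to 78977294, had 18.1 and 24.3 with PAX3-FOXO1 and no peak with vector, QC6352 or DMSO. These leading sites therefore differed among themselves in RH30, from open in all 10 lists to open in none.

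A further site inside the gene was not called by the presence rule, and it was chosen after its values were seen. From 78749865 to 78750783 the authors' fold value was 25.3 and 33.7 with PAX3-FOXO1 and 5.06 and 4.73 with vector. In RH30 it was 24.4 and 33.7 with QC6352 and 46.8 and 31.8 with DMSO. Its percentile within the list was 89.9 and 89.9 with PAX3-FOXO1 and 9.61 and 6.96 with vector, in lists of similar length. Its lowest percentile in the 10 RH30 lists was 96.3. A weak peak with vector kept it out of the gained set. By the rule for sites in all 14 lists, another inside the gene, from 79123784 to 79124703, had 47.0 and 58.9 with PAX3-FOXO1, 42.2 and 41.4 with vector, 10.2 and 10.4 with QC6352 and 14.9 and 12.8 with DMSO. Outside the gene the 2 strongest sites of that kind lay from 78284750 to 78287048 and from 78127256 to 78129625. Their fold values were 29.2 and 41.8, and 24.5 and 31.2, with PAX3-FOXO1, and 64.0 and 60.9, and 68.4 and 61.8, with vector.

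Within the window, the trimmed RH30 lists held far fewer sites under QC6352 than under DMSO. Whole deposited QC6352 lists ran to 111272 and 176899 entries, and whole DMSO lists to 105136 and 129337. Read depth is unknown, and trimming made the lists equal in length. Whether open sites fell in number genome-wide was therefore not tested. In lists trimmed to 105136 peaks 153 of 732 window regions were lost (20.9%), with a peak in both DMSO lists and in neither QC6352 list, and 6 were gained (0.820%). The gains were 16 without the first QC6352 library, 29 without the second, 12 without the first DMSO library and 11 without the second. Over all 170354 regions 7.32% were lost and 6.54% gained. Among 1471 windows of 2 Mb it ranked 1 by the number lost (median 7), and among 1084 with at least 50 regions it ranked 23 by share. Inside the gene span 115 of 488 regions were lost (23.6%), and in the rest of the window 38 of 244 (15.6%). Only 79 of the 153 had no peak in either deposited QC6352 list. The second, longer deposited QC6352 list still held a weaker peak at 74, and the first at 1. No shares over all regions are given for these counts. Just outside the rule, 63 further regions had a peak in both DMSO lists and in 1 QC6352 list, 42 of them in the second. That is 63 of the 284 window regions with both DMSO peaks, against 12447 of 73385 over all regions. Requiring a single DMSO library gave 289 losses without the first and 364 without the second, with no share over all regions given for either. In the 10 Mb before the window there were 2500 and 2206 trimmed peaks under QC6352, against 1581 and 1768 under DMSO, and in 1 Mb steps the ratio of their sums was 0.926 to 1.74. In the window the ratios were 0.398 and 0.201. The next 2 Mb beyond its high end held few peaks, and the ratio was 0.571 in the first of them and 0.421 in the second. In the first, QC6352 libraries had 4 and 8 peaks and DMSO libraries 16 and 5, which overlap, and in the second QC6352 libraries had 4 and 4 and DMSO libraries 10 and 9. In the 4 Mb after that the ratio was 0.976 to 1.44. For PAX3-FOXO1 the 6 Mb after the window held 90 gained and 16 lost regions. From 84 to 85 Mb alone 42 were gained, with 55 and 57 peaks with PAX3-FOXO1 and 5 and 4 with vector, so high gains were not limited to the window.

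**Figure D2:**
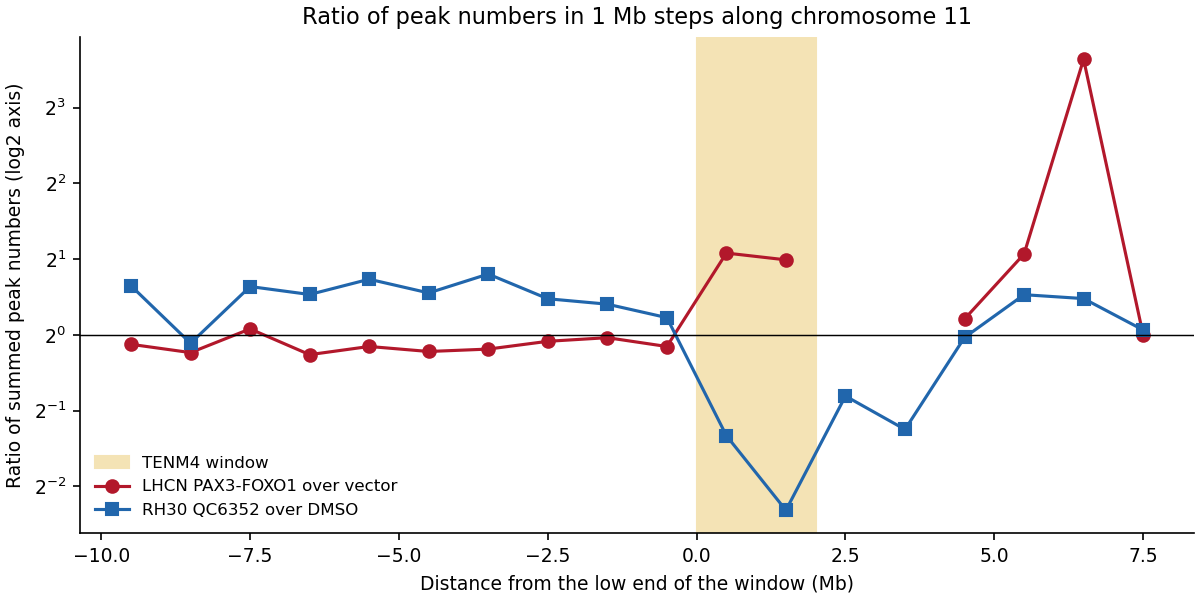
Ratio of summed peak numbers (log2 axis) in 1 Mb steps, from 10 Mb before the window to 6 Mb after it, in lists trimmed to equal length within each experiment. PAX3-FOXO1 over vector is 2.11 and 1.99 in the window and 0.835 to 1.06 before it, and no value is drawn in the 2 steps after it, where vector has no peak, with 12.4 the highest beyond. QC6352 over DMSO is 0.398 and 0.201 in the window, 0.926 to 1.74 before it, and 0.571 and 0.421 in the next 2 steps.

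The regions lost with QC6352 were mainly weak peaks. The lost regions had a median lower DMSO percentile (the lower of both libraries) of 16.8, against 28.3 for lost regions everywhere, and none exceeded 56.6. Of the window regions with both DMSO peaks, 99 of 133 (74.4%) were lost when the lower percentile was at most 25, 49 of 104 (47.1%) between 25 and 50, 5 of 32 (15.6%) between 50 and 75, and 0 of 15 above 75. Over all regions the same shares were 43.4%, 27.3%, 9.91% and 1.20%. Losses chose the window, so these shares are a description. The 68 regions with a peak in all 4 lists had a median percentile of 55.3 with QC6352 and 58.9 with DMSO, 28 of them being higher with QC6352 and 40 lower (median difference -3.52, against -1.24 over all such regions). Among the 50000 strongest peaks of each list the window held 40 and 50 with QC6352 and 60 and 61 with DMSO. With this limit 6 regions were lost and 8 gained, with no share over all regions given. The most highly ranked loss lay outside the gene from 78316378 to 78317158, with a single QC6352 peak of authors' fold value 3.80 and values of 7.97 and 7.77 with DMSO. A loss inside the gene, from 78850914 to 78851603, had no QC6352 peak and 7.31 and 7.77 with DMSO. It was listed in all 6 hairpin libraries at 4.86 to 6.87. Another inside the gene, from 78694484 to 78695160, had 3.56 in 1 QC6352 list and 7.31 and 8.45 with DMSO.

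**Figure D3:**
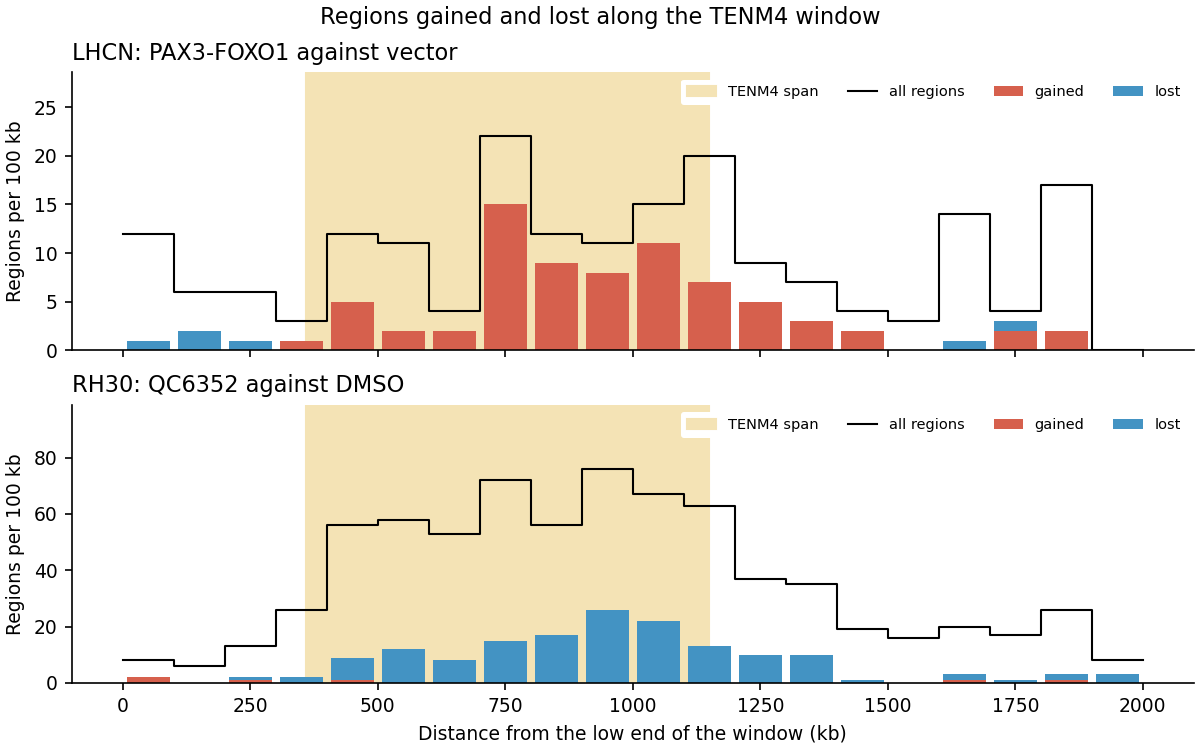
Regions gained (red) and lost (blue) per 100 kb along the window, stacked, with all regions of the experiment as a black line and the TENM4 span shaded. The 1 Mb from 400 to 1400 kb holds 67 of the 74 regions gained with PAX3-FOXO1 and 141 of the 153 lost with QC6352. It also holds most of all regions of each experiment.

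Gains and losses shared the same stretch of chromosome but mostly lay at different sites. The 1 Mb from 78400001 to 79400000 held 67 of the 74 gained regions (90.5%) and 141 of the 153 QC6352 losses (92.2%). This stretch was not fixed in advance, and most regions of both experiments, called or not, also lay in it. The gene span alone held 488 of the 732 regions of the QC6352 experiment and 103 of the 192 LHCN regions. Only 13 sites did both, which is 17.6% of the gained regions and 8.50% of the losses (overlap of at least 1 bp). The number was 24 without the second DMSO library, 4 with a −log10 q of at least 10 and 0 among the 50000 strongest peaks of each list. Over all regions 5.58% of gained regions overlapped a QC6352 loss, and 8.54% of losses overlapped a gained region. Most losses, 131 of 153 (85.6%), overlapped no peak of the trimmed LHCN lists, where over all regions 42.0% of the losses did so.

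Seen from the gained side, the sites had mixed fates in RH30. Of the 74 gained regions 35 had a peak in both DMSO lists, 20 in 1 and 19 in neither. Of the 35, 15 remained in both QC6352 lists (42.9%, against 57.8% of such sites everywhere), 7 in 1 and 13 in neither (37.1%, against 23.6%). In RH30 terms 34 regions with both DMSO peaks overlapped a gained region and 13 were lost (38.2%), against 24.0% for such regions everywhere. Of 197 with no LHCN peak 131 were lost (66.5%, against 39.4% everywhere), and of 33 overlapping a site open in all 4 LHCN lists 3 were lost (9.09%, against 9.04%). Strength differed between these classes. The median lower DMSO percentile was 44.1 for regions at gained sites, 18.1 for regions with no LHCN peak and 67.1 for regions at sites open in all 4 LHCN lists. Its part in the different shares was not tested.

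**Figure D4:**
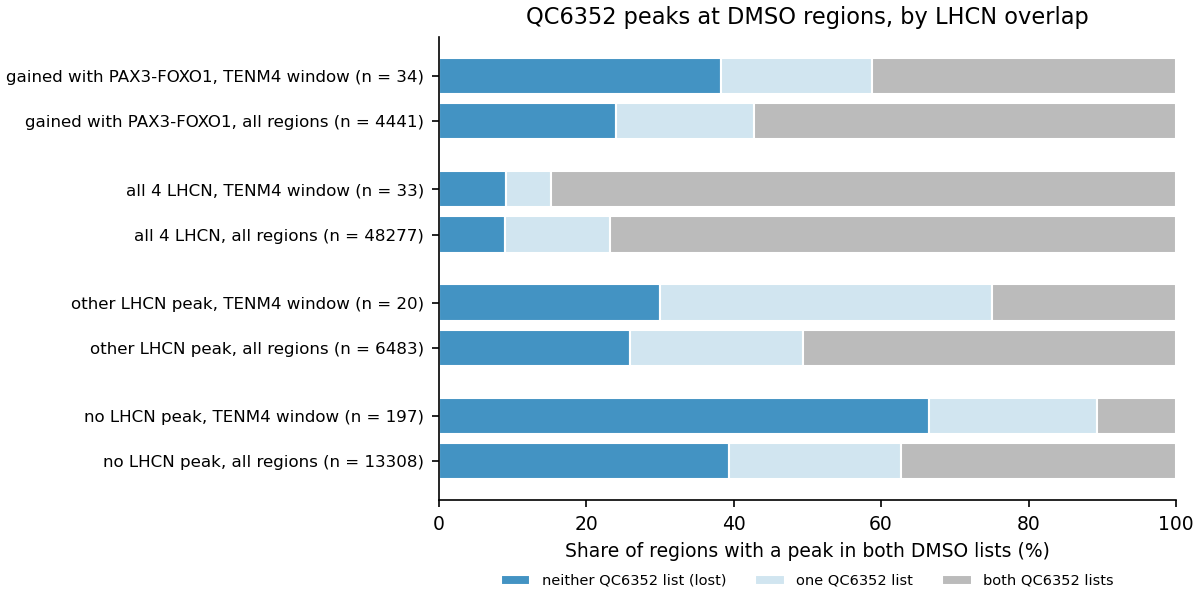
Share of RH30 regions with a peak in both DMSO lists (horizontal axis, %) that had a peak in neither, 1 or both QC6352 lists, by overlap with LHCN regions, for the TENM4 window and for all regions. In the window the lost share is 38.2% at sites gained with PAX3-FOXO1, 9.09% at sites open in all 4 LHCN lists and 66.5% at regions with no LHCN peak.

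The 13 sites that opened with the fusion and closed with QC6352 had mean percentiles of 7.19 to 61.7. Each is the mean of the lower PAX3-FOXO1 percentile and the lower DMSO percentile. None of the 13 sites had a peak in a deposited vector list, and 10 lay inside the gene span. In 11 the closest summits of the LHCN and RH30 peaks lay within 250 bp (median 21 bp). The authors' fold values were 3.72 to 24.3 with PAX3-FOXO1 and 4.65 to 8.45 with DMSO. The first deposited QC6352 list had no peak at any of them, and the second had a weak one at 4 (3.80 to 4.27). The most highly ranked on both sides lay from 79052929 to 79054244, with 13.2 and 17.2 with PAX3-FOXO1, no vector or QC6352 peak, and 7.31 and 7.10 with DMSO. The next, from 78885222 to 78885980, had 12.4 and 14.01 with PAX3-FOXO1, none with vector or QC6352, and 7.64 and 6.76 with DMSO. The site from 78761836 to 78762136 had 10.8 and 17.2 with PAX3-FOXO1, none with vector or QC6352, and 6.31 and 8.45 with DMSO. At these 3 neither deposited QC6352 list nor vector list held even a weak peak. The strongest in LHCN, from 79044396 to 79045624 with 23.0 and 24.3 with PAX3-FOXO1, was a weak match, since its LHCN and RH30 regions shared only 6 bp and their summits lay 667 bp apart. Of the other 6 named by the rule, 3 lay inside the gene between 79051251 and 79123589, 1 inside it from 78496133 to 78496547, and 2 beyond its high end, from 79169798 to 79170108 and from 79213558 to 79214561.

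**Figure D5:**
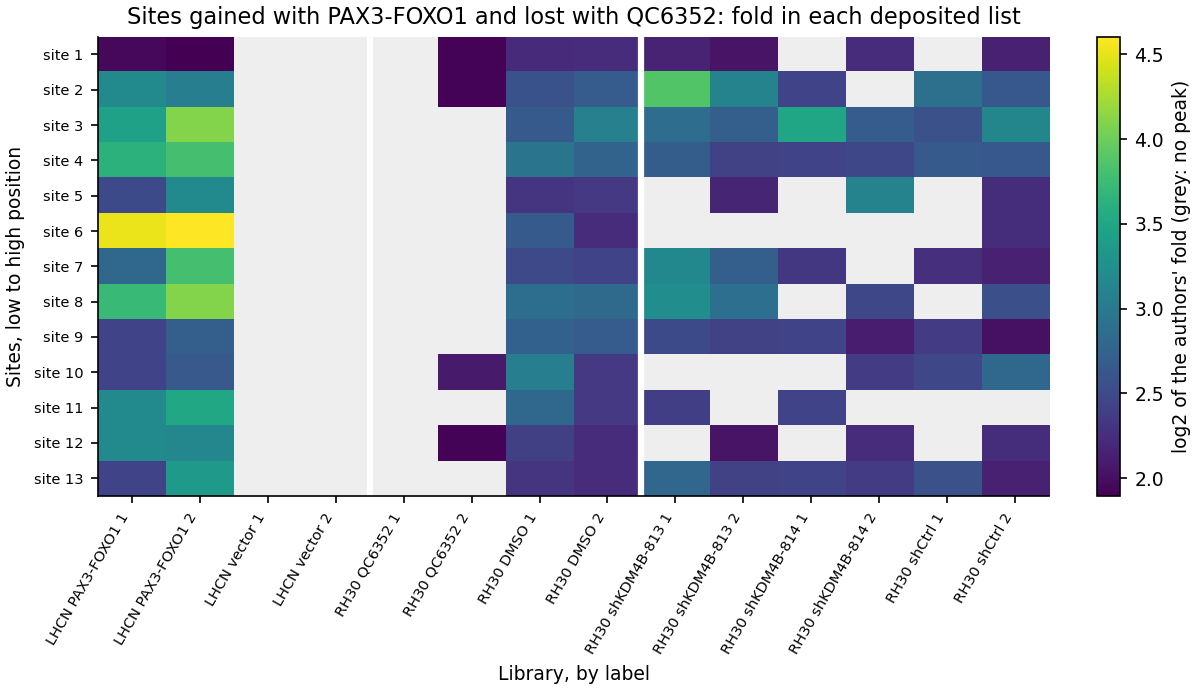
The authors' fold value (colour, log2) in each deposited list at the 13 sites gained with PAX3-FOXO1 and lost with QC6352, in order of position, with grey for no peak and libraries named by label. Both vector columns are grey throughout, the first QC6352 column is grey throughout, and the second shows a peak at 4 sites.

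The hairpin libraries were not used to choose the window, so they were tested. The libraries labelled shKDM4B-813 averaged 145.5 ± 16.3 window peaks and those labelled shCtrl 204 ± 9.90 (SD, n = 2 each), a difference of -58.5. Those labelled shKDM4B-814 averaged 336.5 ± 40.3, a difference of 132.5 from shCtrl. The labelled hairpins thus lay on opposite sides of the labelled control, without overlap. The trimmed lists ended at a −log10 q of 7.11 and 6.17 (labelled shKDM4B-813), 4.81 and 2.21 (labelled shKDM4B-814), and 5.39 and 6.19 (labelled shCtrl). The part of these limits in the differences was not tested. Each comparison gave p = 0.333 in a two-sided exact permutation test, the smallest value for 2 libraries against 2 (adjusted p = 0.5 over 6 values). With the 4 hairpin libraries together the difference was 37.0 (exact permutation test, two-sided, p = 0.733, adjusted p = 0.867). Grouped by the peak names, all 4 libraries named sh813 (211 and 197 peaks) or sh814 (134 and 157) lay below both named shCtrl (308 and 365). That difference was -161.75 (exact permutation test, two-sided, p = 0.0667, the smallest that 4 against 2 allows, adjusted p = 0.2). With other lists the difference by the peak names was small and positive, at 12.0 peaks in the lists as deposited, 11.25 with a −log10 q of at least 10 and 1.25 among the 50000 strongest (exact permutation tests, p = 0.667, 0.533 and 0.867). As deposited, the lists held 392 and 346 window peaks (labelled shKDM4B-813), 362 and 365 (labelled shKDM4B-814), and 353 and 411 (labelled shCtrl), so the groups overlapped.

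At the sites lost with QC6352 the trimmed hairpin lists gave the same order. Of those 153 regions, 17.6% and 25.5% had a peak in the libraries labelled shKDM4B-813, 42.5% and 49.7% in those labelled shKDM4B-814, and 33.3% and 27.5% in those labelled shCtrl. The first pair averaged 8.82 percentage points below the libraries labelled shCtrl and the second 15.7 above (exact permutation test, two-sided, p = 0.333 for each, adjusted p = 0.5). By the peak names the 4 KDM4B hairpin libraries averaged 26.0% ± 6.48 (SD, n = 4) and the control hairpin 46.1% ± 5.08 (SD, n = 2), a difference of -20.1 points (exact permutation test, two-sided, p = 0.0667, adjusted p = 0.2). With other lists this difference was 0.654 points as deposited, 2.45 with a −log10 q of at least 10 and 1.31 among the 50000 strongest (exact permutation tests, p = 0.933, 0.2 and 0.533). By label, shKDM4B-814 then differed from shCtrl by -1.31, -1.96 and -4.25 points, and as deposited the shares overlapped, at 49.0% and 47.7% (labelled shKDM4B-813), 47.1% and 49.7% (labelled shKDM4B-814), and 45.8% and 53.6% (labelled shCtrl). At the 68 regions with a peak in all 4 QC6352 and DMSO lists the shares were 79.4% and 79.4%, 91.2% and 92.6%, and 79.4% and 80.9% in the same label order. At the 13 sites that did both, the trimmed hairpin lists had a peak at 6 and 6 (labelled shKDM4B-813), 7 and 9 (labelled shKDM4B-814), and 6 and 5 (labelled shCtrl).

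Region calls for the hairpins covered 581 window regions. By label, shKDM4B-813 against shCtrl gained 17 and lost 34 (2.93% and 5.85%, where 11.1% and 7.28% of all regions were called), and shKDM4B-814 gained 31 and lost 8 (5.34% and 1.38%, against 5.87% and 6.10%). By the peak names, sh813 gained 8 and lost 31 (1.38% and 5.34%, against 6.10% and 5.87%), and sh814 gained 7 and lost 60 (1.20% and 10.3%, against 4.73% and 2.55%). Both comparisons of each grouping share their control libraries.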

How the data were processed

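ATAC-seq peak lists of 14 libraries, 1 list per library, were used as deposited. The tools, per the submitters' processing notes, included MACS2 2.1.1, SAMtools 1.3.1, Picard 1.65 and BWA 0.7.12-r1039, and the build hg19. No source used here gives their settings, filters or any Tn5 shift. The authors deposited a fold value per peak (a ratio over background), a −log10 p and −log10 q, and a score, which was not used, nor were the p values. Fold values describe or rank peaks within a list only. Deposited lists hold peaks above a limit (lowest −log10 q 2.00 to 2.60), and read depth is unknown.

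Within each experiment lists were trimmed to the shortest (170390, 105136 and 93488 peaks) by −log10 q, then fold, then width, then an order unrelated to the chromosome. The trimmed lists thus ended at unlike −log10 q values. These were 4.93 and 4.14 with vector, 3.94 and 2.60 with PAX3-FOXO1, 3.63 and 6.75 with QC6352, and 2.54 and 4.83 with DMSO. The part of these limits in the counts was not tested. At the limit 1835 to 15215 peaks per list were tied, 100 of them in the window in the second DMSO list. Peaks were merged into regions, and a library was present if a peak overlapped by 1 bp. Calls need both libraries of a group and neither of the other, and carry no test per region. Single values were compared by exact permutation over libraries, with Benjamini-Hochberg adjustment over 6 hairpin values. The percentile of a peak is its rank within its trimmed list, or within the deposited list for single sites. Named sites were the 10 highest of those that did both, the 5 highest gained and lost, and those in all 14 lists (some printed); the gene start and 1 strengthened site were added after seeing values. The planned lookup of the gene start could not be run, since no hg19 annotation was used. The members and lists were chosen with earlier results of these data known. Python 3.11.15, pandas 2.3.3 and numpy 2.4.6 were used, and the functions were tested on simulated data.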

Additional observations from a re-analysis of the deposited data

Results flagged for a closer look

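Measured against the libraries labelled shCtrl, both libraries labelled shKDM4B-813 had fewer window peaks (difference of means -58.5) and both labelled shKDM4B-814 had more (132.5). The share of the sites lost with QC6352 that had a peak likewise differed by -8.82 percentage points and 15.7 percentage points. Every library of one label moved one way and every library of the other the opposite way, and the difference between the labels was not tested. The peak names inside these lists give another grouping, in which both KDM4B hairpins lie below the control hairpin on both measures in the trimmed lists. In the lists as deposited they do not: sh813 differs from it by 18.5 peaks and 1.31 points, and sh814 by 5.5 peaks and 0 points.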

How the results depend on the processing

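Of 145 alternative values 110 were counted as kept, 15 moved and 20 reversed. Those kept include values that could not differ from the main ones: the calls in both replicate pairs and the hairpin differences with the replicate block. For counts of regions, kept meant within a factor of 1.5. For hairpin differences it meant the same direction at any size. For shKDM4B-813 the difference of -58.5 window peaks became -13 as deposited and -253.5 with DMSO as control, both counted as kept. With lists as deposited 107 regions were lost and 8 gained with QC6352, 73 were gained with PAX3-FOXO1 and 12 sites did both. Ties at the limit handled in other ways, chosen after seeing the data, gave 135 to 154 QC6352 losses. With a −log10 q of at least 10, 22 regions were lost with QC6352 and 4 sites did both. Among the 50000 strongest peaks 25 regions were gained with PAX3-FOXO1, 6 were lost with QC6352 and 0 did both. The cause was not tested. Leaving out 1 library gave 77 to 92 regions gained and 8 to 13 lost with PAX3-FOXO1, 11 to 29 gained and 174 to 364 lost with QC6352, and 13 to 24 that did both, since fewer lists must then meet the rule. Shares over all regions are not given for any of these settings, here or above. These counts therefore do not show how the window then compares with the rest of the genome.

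Libraries share only a replicate number. With the replicate block the QC6352 losses were 428 in pair 1, 321 in pair 2 and 153 in both pairs, and the PAX3-FOXO1 gains 95, 93 and 74. The differences of hairpin means cannot change with the block. By label, exact permutation within the block gave p = 0.5 for each hairpin on both measures. For both hairpins together this permutation test gave p = 0.667 for window peaks and p = 0.778 for the share of QC6352-lost sites.

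For the hairpins by label, lists as deposited gave differences from shCtrl of -18.5 window peaks for shKDM4B-814 and -15.75 for both hairpins, and -1.31 percentage points of the QC6352-lost sites for each of these. With a −log10 q of at least 10 the difference was 25.5 peaks for shKDM4B-813, and 0.980, -1.96 and -0.490 points for shKDM4B-813, shKDM4B-814 and both. Among the 50000 strongest peaks it was -7.5 peaks and -4.25 points for shKDM4B-814, and -10.0 peaks and -5.07 points for both. By the peak names it was -191 peaks and -24.5 points for sh814, and -161.75 peaks and -20.1 points for both. With DMSO in place of shCtrl it was -62.5 peaks for shKDM4B-814 and -158 for both. Leaving out 1 library gave -70.0 to -47.0 peaks and -12.7 to -4.90 points for shKDM4B-813, 104 to 161 peaks and 12.1 to 19.3 points for shKDM4B-814, and -4.33 to 72.7 peaks and -1.85 to 8.82 points for both. The lowest for both came without the second library labelled shKDM4B-814. The cause was not tested. Read depth is unknown, so a missing peak may be an undetected one.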
